A study of Zea mays with 4 samples.

Results

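The miR395 family of maize (Zea mays) was described here through 10 of its mature products, 7 from the 3p arm of the precursor hairpin and 3 from the 5p arm. They were 10 of 576 miRNA entries in the deposited table, which held 32 entries of miR395 in all, 1 for each arm of 16 named precursors. The 10 entries were chosen by their measured rise in the libraries of 15 days, so their difference between those libraries and the younger ones is given as a description and supports nothing further. The study sequenced small RNA from root tips of 1 cm of the cultivar Zhengdan 958, grown as seedlings in Hoagland nutrient solution. Primary roots were taken at an early stage of 3 days after germination (PRY) and at a later stage of 15 days (PRO), seminal roots (SR) at 7 days and crown roots (CR) at 15 days. Each group was 1 library without a replicate, and no sulfate treatment is named in the labels.

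In plants, miR395 is the microRNA of sulfate supply. The 3p strand is loaded into the silencing complex and lowers transcripts of ATP sulfurylase, the enzyme that activates sulfate for assimilation, and of a low-affinity sulfate transporter. In Arabidopsis it is induced when sulfate is scarce, moves from shoot to root in the phloem and shifts sulfate from root to shoot. The 5p strand is the partner of the duplex, usually called the star strand, and its own targets are less well defined.

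The values in the table were treated as RPM, reads for every 1000000 reads of a library total. The recovered totals lay between 10721082 reads in PRY and 11572637 reads in SR, so 1 read was worth 0.0864 to 0.0933 RPM. Neither age nor root type can be told apart from the library in the differences that follow. PRO and PRY share the root type and CR and PRO the age, while the other pairs of libraries differ in both. Intervals on reads cover counting error only, since amplified reads that carry no molecular identifier may be copies of 1 molecule. In a bulk library, fewer cells that make a miRNA and less of it per cell cannot be told apart. Of 15 entries of miR2118 and miR2275, families known for anthers, no entry had more than 1 read in any library. The extraction protocol names shoots besides roots, while every sample label names roots alone.

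The 3p strand, the strand that acts on sulfate genes, was nearly missing from the younger libraries and present at a low level in the older ones. zma-miR395a-3p had 1 read in PRY and 1 in SR, against 62 in PRO and 47 in CR. Its level was 0.0933 RPM in PRY and 0.0864 in SR, against 5.61 in PRO (95% exact Poisson interval 4.30 to 7.19) and 4.30 in CR (3.16 to 5.72). PRO and CR were thus the high libraries and PRY and SR stood at the level of a single read, the contrast for which the entry was chosen. zma-miR395d-3p, zma-miR395e-3p, zma-miR395g-3p and zma-miR395h-3p had the same reads as zma-miR395a-3p in all 4 libraries. zma-miR395b-3p and zma-miR395f-3p differed from them in PRY alone, with 2 reads, which was 0.187 RPM (0.0226 to 0.674). The 7 listed 3p entries therefore held 2 sets of values, and they are not 7 separate measurements.

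The 5p strand followed the same division of the libraries. zma-miR395e-5p had 1 read in PRY and 2 in SR, against 51 in PRO and 61 in CR, and zma-miR395h-5p had the same values. Their level was 0.0933 RPM in PRY (0.00236 to 0.520) and 0.173 in SR (0.0209 to 0.624), against 4.61 in PRO (3.43 to 6.06) and 5.59 in CR (4.27 to 7.18). zma-miR395b-5p had 1 read in PRY and 3 in SR, against 33 in PRO and 51 in CR, or 0.0933, 0.259, 2.98 and 4.67 RPM in that order. With the library total the 3 listed 5p entries had their highest value in CR and the 7 listed 3p entries in PRO, but with edgeR TMM factors zma-miR395e-5p was lower in CR than in PRO, and with the total over distinct miRNA entries the 3p entries were higher in CR. The 10 entries held 4 distinct sets of values in all.

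**Figure D1:**
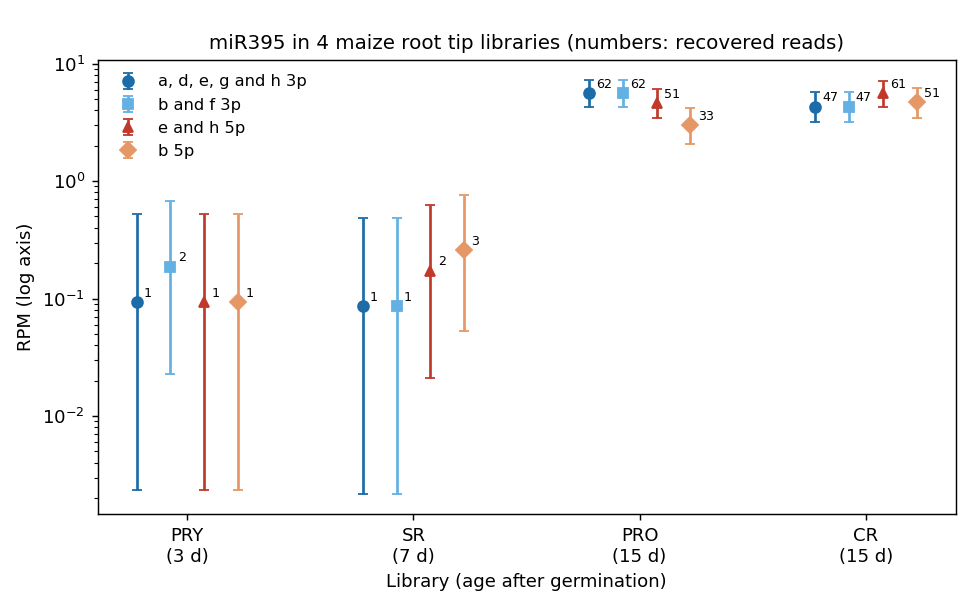
RPM of the 4 distinct sets of values among the 10 listed miR395 entries, on a log axis, in the 4 libraries ordered by age. Points are single libraries, bars are 95% exact Poisson intervals for counting error, and the numbers are recovered reads, which were 1 to 3 in PRY and SR and 33 to 62 in PRO and CR.

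Even in the older libraries miR395 was a scarce miRNA. zma-miR395a-3p ranked 103 of 576 entries in PRO and 113 in CR, against 301 in PRY and 295 in SR, with tied entries given the best rank. zma-miR395e-5p ranked 125 in PRO and 99 in CR. The highest entry of each arm together came to 113 reads in PRO and 108 in CR, which was 0.00434% and 0.00638% of the reads over distinct entries of the table. In PRY the same sum was 4 reads and in SR 6 reads. A sum over all 32 entries would have given 981 reads in PRO and 899 in CR, because entries with equal values are then added repeatedly.

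A call of higher or lower needed a difference of at least 1 in log2(RPM + 1) between 2 libraries, and an entry counted as measured if either library held it at 1 RPM or more. The pseudocount of 1 RPM understates the folds of entries as low as these, so folds are given as ratios of recovered reads scaled to library totals, with exact conditional binomial (Clopper-Pearson) 95% intervals. With 1 library per group no test between groups was possible, and each fold compares libraries.

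The later primary root library was set against the early one to follow the age of the same root type. All 10 entries were measured and all 10 were called higher in PRO, where 23.8% of the 244 entries measured were called higher. The 10 reached the minimum through the older library alone and had been chosen for this difference, so nothing is read from their count. On 62 reads against 1, zma-miR395a-3p was 60.1-fold higher in PRO (10.4 to 2412). zma-miR395b-3p, with 2 reads in PRY, was 30.1-fold higher (7.98 to 254). zma-miR395b-5p was 32.0-fold higher (5.36 to 1302). The upper limits are loose because the early library gave 1 or 2 reads of each entry. The median difference of log2(RPM + 1) over the 10 entries was 2.54, beside -0.11 over all measured entries.

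The crown root library, which differs from PRY in both root type and age, was compared with the same PRY library. All 10 entries were again measured and called higher, beside 25.1% of 255 entries. They had been chosen for this rise too and reached the minimum through CR alone, so nothing is read from their count. In CR the level of zma-miR395a-3p was 46.1-fold that in PRY (7.89 to 1861), and the level of zma-miR395b-5p was 50.1-fold (8.59 to 2016). These folds depended on the scaling: that of zma-miR395e-5p was 59.9 with the library total and 129 with the total over distinct miRNA entries, and that of zma-miR395b-3p was 23.1 and 49.9. With a pseudocount of 5 RPM 2 of the 10 entries were called, and with identical entries counted once 4 were. The median over the 10 entries was 2.28, beside -0.20 over all measured entries.

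The seminal root library stood with the early primary root library. None of the 10 entries reached 1 RPM in PRY or SR, so none was measured and none could be called. zma-miR395a-3p had 1 read in each, a ratio of 0.93 whose interval ran from 0.0118 to 72.7. zma-miR395b-5p, with 3 reads in SR against 1 in PRY, had a ratio of 2.78 (0.223 to 146). A difference between PRY and SR was not detectable at this depth, and intervals this wide do not show that the libraries were alike.

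Against the seminal root, the older libraries differed as they did against the early primary root. In PRO all 10 entries were called higher than in SR, beside 24.5% of 241 measured entries, with a median of 2.60 over the 10 and 0.33 over all. zma-miR395a-3p was 64.9-fold higher (11.2 to 2604), zma-miR395e-5p 26.7-fold (7.02 to 226) and zma-miR395b-5p 11.5-fold (3.61 to 58.7). In CR all 10 were called higher than in SR, beside 21.4% of 248, with medians of 2.29 and 0.06. The 10 were chosen for their rise in PRO and CR, reached the minimum through those libraries alone and hold repeated values. These counts and medians are therefore a description, and nothing is read from them. zma-miR395a-3p was 49.8-fold higher (8.51 to 2009), zma-miR395e-5p 32.3-fold (8.57 to 273) and zma-miR395b-5p 18.0-fold (5.83 to 90.2). With edgeR TMM factors the folds of CR over SR were 29.8 for zma-miR395b-3p, which has the same reads as zma-miR395a-3p in both, and 19.4 for zma-miR395e-5p, and with a pseudocount of 5 RPM 2 of the 10 entries were called.

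**Figure D2:**
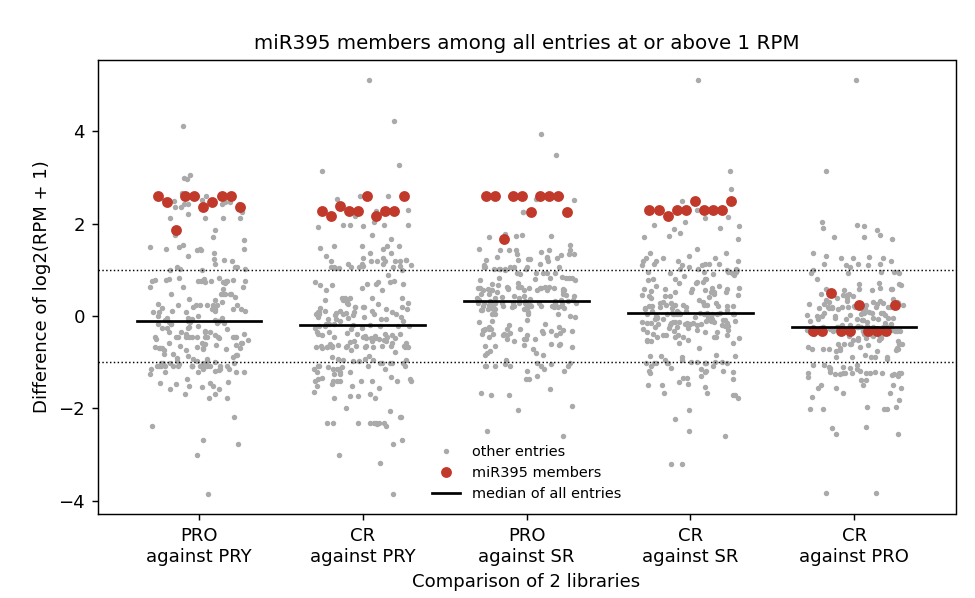
Difference of log2(RPM + 1) between 2 libraries for every entry that reached 1 RPM in at least 1 of them, with the 10 miR395 entries in red, the median of all entries as a bar and the call limits of 1 and -1 dotted. The red points lie above 1 in the 4 comparisons of an older with a younger library and between -1 and 1 in CR against PRO, and comparisons that share a library are not independent.

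The crown root and the later primary root were of the same age, 15 days. None of the 10 was called between them, while 31.7% of the 240 measured entries were called higher or lower. The entries were chosen for being high in both of these libraries, which leaves out entries high in 1 of them, so nothing is read from this count. The arms lay on opposite sides of 1 with the library total. zma-miR395a-3p had 47 reads in CR against 62 in PRO, a ratio of 0.77 (0.514 to 1.14). zma-miR395e-5p had 61 against 51, a ratio of 1.21 (0.821 to 1.79), and zma-miR395b-5p had 51 against 33, a ratio of 1.56 (0.991 to 2.50). With the library total each of these intervals includes 1, and the scaling decided both the side of 1 and whether the interval included it. The ratio of zma-miR395e-5p was 0.89 (0.605 to 1.32) with edgeR TMM factors, 1.58 (1.07 to 2.33) with DESeq2 size factors and 1.84 (1.25 to 2.72) with the total over distinct miRNA entries. The ratio of the 3p strand was 0.57 (0.379 to 0.839), 0.998 (0.668 to 1.48) and 1.17 (0.780 to 1.73) in the same order. No direction between CR and PRO is drawn from either arm alone.

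The balance of the arms does not depend on how libraries are scaled, because both arms are read in the same library. Of the reads of zma-miR395e-5p and zma-miR395e-3p together, the 5p strand had 45.1% in PRO (exact binomial interval 35.8 to 54.8) and 56.5% in CR (46.6 to 66.0). The 5p to 3p odds were 1.57-fold those of PRO in CR (0.897 to 2.78), an interval on both sides of 1. For miR395b the 5p share was 34.7% in PRO (25.3 to 45.2) and 52.0% in CR (41.7 to 62.2), and the odds differed 2.03-fold (1.10 to 3.79). The miR395b interval lies above 1 for counting error alone, in 2 libraries, and shares its 3p reads with miR395e. In PRY and SR the 2 to 4 reads per precursor allowed no statement on the arms.

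The arm balance of these pairs was set beside that of other known maize precursors. The listed 5p strands were chosen for a rise in PRO and CR, the libraries ranked here, so nothing is read from the ranks. Pairs of other listed 3p entries were uneven. The less abundant arm held 3.1% for miR395a in PRO and 0% in CR, and for miR395d 0% in PRO and 2.1% in CR. The less abundant arm held 45.1% of the reads of miR395e in PRO, rank 3 of 81 precursors with 20 or more reads over both arms, and 34.7% for miR395b, rank 8. The median over the 74 precursors of other families was 0.0935%, and 8 of them reached 30%. In CR the less abundant arm held 48.0% for miR395b and 43.5% for miR395e, ranks 2 and 4 of 71, beside a median of 0.0960% over 64 precursors of other families, of which 5 reached 30%. Those others belonged to miR169, miR171, miR160 and miR159 in PRO, and to miR169 and miR171 in CR. Precursors of a family with the same reads on both arms were counted once, and this comparison was added after the values were seen. The 3p reads could come from any of 11 precursors that carry them, so the balance is that of the listed pair of products and not of a precursor.

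**Figure D3:**
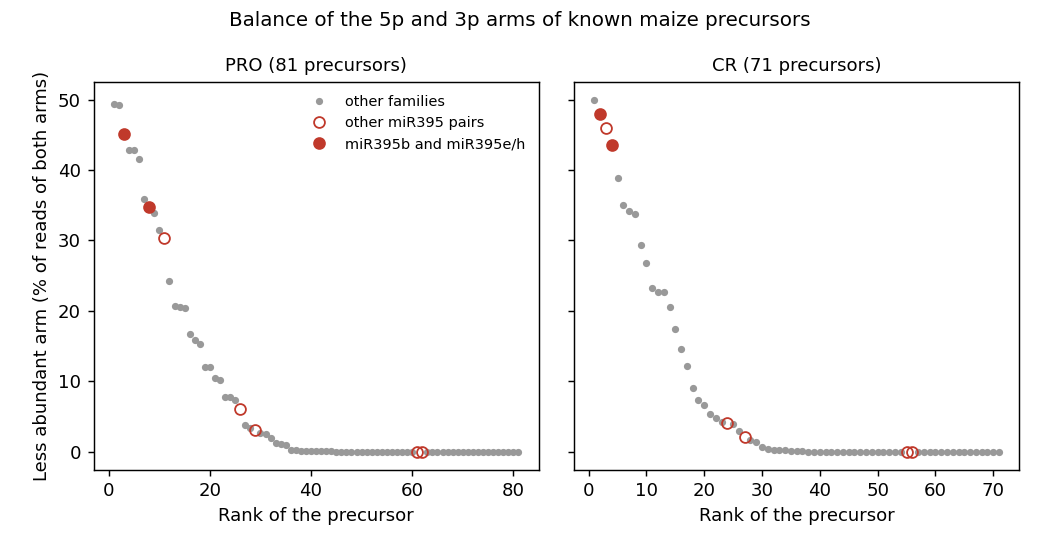
Share of reads held by the less abundant arm, in percent of both arms, for known precursors with 20 or more reads, ranked within PRO and within CR. Filled red points are miR395e, which stands for miR395h as well, and miR395b, at 45.1% and 34.7% in PRO and 43.5% and 48.0% in CR. Open red points are the other miR395 pairs, among them those of the listed miR395a-3p and miR395d-3p, and several have a 5p strand near 0.

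The remaining 22 miR395 entries show how far the listed ones stand for the family. Of these, 6 had the same values as a listed entry of their arm. They were miR395i-3p, equal to miR395b-3p, miR395j-3p, miR395n-3p and miR395p-3p, equal to miR395a-3p, and miR395j-5p and miR395p-5p, equal to miR395e-5p. A further 7 were at 0 in all libraries and 7 had a highest value of 1 to 4 reads. The other 2 were 5p strands with values of their own. zma-miR395n-5p had 2 reads in PRY and 5 in SR, against 27 in PRO and 40 in CR. zma-miR395o-5p had 0, 4, 26 and 43 reads in that order, which made it at least 8.40-fold higher in PRO and at least 14.1-fold higher in CR than in PRY, against a floor of 3 reads in PRY. The exact conditional lower limits of these ratios, which add the counting error of the 26 and 43 reads, were 6.36 and 10.96. Both were high in the older libraries. In CR against PRO their ratios with the library total were 1.5 (0.898 to 2.54) and 1.67 (1.01 to 2.84).

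The arms differed in how many entries and sets of values held the reads, and these need not be separate molecules. Of 16 entries per arm, 11 of the 3p and 7 of the 5p entries reached 1 RPM in PRO or CR. The 11 3p entries were nearly equal in all libraries. The 7 5p entries held 4 sets of values, those of miR395e, miR395b, miR395n and miR395o. If these sets shared no reads, the 5p arm would come to 143 reads in PRO and 198 in CR with the rarer entries added. If they shared as many as possible, it would come to 51 and 61. Which reads matched several entries is not known from the table.

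By RefSeq gene order in the maize B73 assembly Zm-B73-REFERENCE-NAM-5.0, used for names and neighbours alone, 15 of the 16 precursors were matched, and miR395j was the exception. They fell into 3 runs of genes with no other annotated gene between them. The run of 8 genes, in the order MIR395d, f, g, e, i, h, b and a, held the precursors of all 10 listed entries. Within it the 3p strands were nearly equal, while the 5p strand ranged from 0 reads in PRO for miR395d, miR395f and miR395g to 51 for miR395e and miR395h. The run of MIR395n, o and p held the 2 further 5p strands described above. In this run miR395n-3p and miR395p-3p had the values of miR395a-3p, and miR395p-5p those of miR395e-5p. Listed products with those values therefore cannot be assigned to 1 run by their reads. The run of 4 genes, MIR395k, l, m and c, had at most 1 read in any of its 8 entries in any library. A count of 0 there allows a level of up to 0.259 to 0.280 RPM by a floor of 3 reads of a library total, or 0.319 to 0.344 RPM by the exact Poisson interval.

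**Figure D4:**
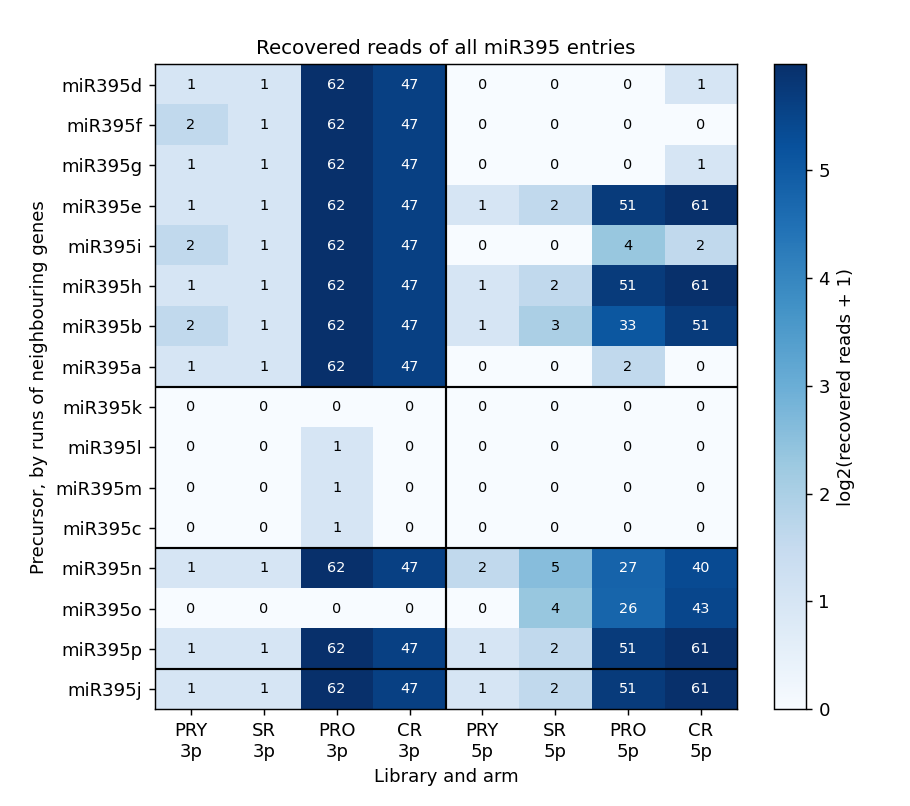
Recovered reads of all 32 miR395 entries by library and arm, coloured on a log2 scale, with precursors ordered by runs of neighbouring genes and miR395j, which had no match, last. The 3p columns repeat 62 reads in PRO and 47 in CR down 11 rows, the 5p columns vary between rows, and the rows of miR395k, l, m and c hold 0 or 1.

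The known miRNAs outside the family with the profile nearest to miR395 were found by their shares. Likeness was measured as the sum of absolute differences between the shares of summed RPM that 2 entries had in the 4 libraries, over 112 known entries with 20 or more reads. zma-miR395e-5p had 0.892% of its summed RPM in PRY and 1.65% in SR, against 44.1% in PRO and 53.4% in CR. zma-miR395b-5p lay 13.6 percentage points from it and zma-miR395b-3p lay 23.8 points from it. The nearest outside entry was miR169f-5p at 27.5 points, from a family that targets NF-YA transcription factors, with 2 reads in PRY and 4 in SR, against 11 in PRO and 19 in CR. Next came miR162-3p, which targets the processing enzyme DCL1, at 40.5 points, miR169g at 45.6, miR393b-5p, of the auxin receptor regulators, at 51.1, and miR167a-5p, which targets auxin response factors, at 59.5. The median over all 112 was 92.9 points, and miR169f-5p, on 36 reads in all, was nearly as close as zma-miR395b-3p. The profile is the one the miR395 entries were chosen for, so these distances are a description. Of these 5 only miR167a-5p, with 3075 to 13874 reads, was abundant, and the other 4 had 2 reads each in PRY.

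**Figure D5:**
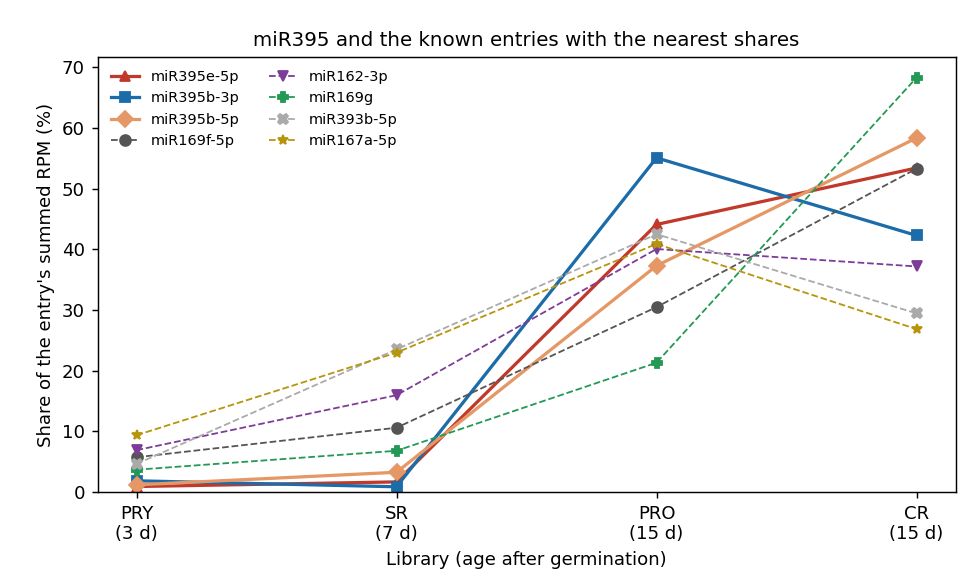
Share of an entry's summed RPM found in each library, in percent, for 3 miR395 entries (solid) and the 5 known entries with the nearest shares (dashed), with lines that only join the points of an entry. The miR395 entries have at most 3.24% in PRY or SR, and each dashed entry has a larger share than that in both.

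Other miRNAs of mineral nutrition differed among families in which libraries were high. Among the phosphate regulators, miR399e-3p, which acts on the phosphate regulator PHO2, had 0 reads in PRY and SR, 2 in PRO and 14 in CR, so it was highest in CR but near the floor in PRO. miR827-3p, which acts on SPX-domain proteins, had 45 reads in PRY and 27 in SR, against 78 in PRO and 38 in CR. Of 22 entries in these 2 families, 0 of 2 measured were called higher in PRO against PRY, beside 23.8% of all entries measured. In CR against PRY 3 of 5 were called higher, beside 25.1%. These 3 were miR399 entries with at most 14 reads each, and entries of a family can share reads. Among the copper families the seminal root was not a low library. miR398a-3p, a regulator of superoxide dismutase, had 2 reads in PRY and 25 in PRO, with 17 in SR and 4 in CR. miR397b-3p had 8, 12, 12 and 6 reads in PRY, PRO, SR and CR. In the same order miR408b-5p had 37, 300, 542 and 179 reads, and miR528b-5p had 12894, 75524, 51367 and 5233. The last 2 thus went opposite ways in CR against PRY. The copper families miR397, miR398, miR408 and miR528 had 15 entries. Of these, 5 of 8 measured were called higher and 0 lower in PRO against PRY, the direction of miR395, beside 23.8% higher over all entries. In the same families 7 of 10 measured were called higher in SR against PRY, beside 18.7% of all entries measured, and 1 of 5 was called higher and 2 lower in CR against PRY. Of the 7, 4 were miR528 entries. The 5p strands of miR528a and miR528b had 75053 and 75524 reads in PRO, so these entries may share reads and are not counted as separate measurements. Over all measured entries 21.3% were called lower in PRO against PRY and 24.3% in CR against PRY. In the nitrate-responsive families miR169 and miR393, 1 of 19 measured entries was called higher and 4 lower in PRO against PRY, and 3 of 21 higher and 4 lower in CR against PRY. In SR against PRY 14 of 17 were called lower, beside 29.6% of all entries measured. All 14 were entries of miR169, which may share reads as well, so the count is not one of separate measurements. Calls of the nutrient families are given with the library total alone, and their change under other scalings was not examined. Over all entries the number of calls changed with the scaling in each comparison with PRY. In SR against PRY, 68 of all entries were lower with the library total. Lower calls were 20 with edgeR TMM factors, 28 with DESeq2 size factors and 14 with the total over distinct miRNA entries. Higher calls were 43 with the library total and 60, 55 and 62 in the same order. From the library total to the total over distinct miRNA entries, lower calls in PRO against PRY went from 52 to 17 and higher calls from 58 to 75. In CR against PRY lower calls went from 62 to 26 and higher calls from 64 to 116. Against SR, 6 of 18 measured entries of miR169 and miR393 were called higher in PRO, beside 24.5% of all entries measured. In CR 6 of 20 were called higher than in SR, beside 21.4%. Of these families 0 entries were lower in either, while over all entries 24 of 241 were lower in PRO and 39 of 248 in CR. The shares called higher were near those over all entries, so nothing is read from them.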

How the data were processed

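The deposited table gave 1 value per miRNA and library, which its header calls TPM. The authors' values were treated as RPM, since each was a whole multiple of 1 step per library, and 100% of them came out as whole reads within 0.01 read. For the aligner, the miRNA release and the genome build, names were not given in the sources used here. All 4 libraries were mapped to their groups by the stage label.

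Fitted steps gave library totals and reads, and 6 pairs of libraries were compared by the size rule given above. edgeR's count test could not be run with 1 library per group. TMM factors (edgeR 4.0.16), DESeq2 size factors (1.42.0) and other settings served as alternatives. Python 3.11.15, pandas 2.3.3, numpy 2.4.6, scipy 1.17.1, matplotlib 3.10.9 and R 4.3.3 were used, and the code was tested on simulated data.

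The members and lists were chosen with earlier results of these data known. Named miRNAs outside the family were the 5 nearest in profile and the highest entry of each nutrient family whose values are given. The authors' candidate miRNAs entered the background counts alone.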

Additional observations from a re-analysis of the deposited data

How the results depend on the processing

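No paired analysis was possible because each group held 1 library, and no library could be left out. Of 84 recomputed values, 75 stayed within 1.5 times the count reported or within the 95% counting interval of the ratio reported, and these intervals are wide. Under the 4 scalings the fold of the highest 5p entry, miR395e-5p, ranged from 49.4 to 70.4 in PRO against PRY, 58.9 to 129 in CR against PRY, 19.97 to 26.7 in PRO against SR and 19.4 to 39.3 in CR against SR. That of the highest 3p entry, miR395b-3p, ranged from 30.1 to 42.8, 22.7 to 49.9, 48.5 to 64.9 and 29.8 to 60.6 in the same order. In SR against PRY the 5p ratio ranged from 1.85 to 3.29 and the 3p ratio from 0.463 to 0.823, each on 1 or 2 reads per library. With identical entries counted once, the 10 entries called higher became 4 in PRO against PRY, CR against PRY, PRO against SR and CR against SR. With a pseudocount of 5 RPM, 2 entries were called in CR against PRY and 2 in CR against SR, while 7 were called in PRO against PRY and PRO against SR. A minimum of 3 RPM left 9 calls in PRO against each younger library. With the total over distinct miRNA entries, 1 entry, miR395b-5p, was called in CR against PRO, where the ratio became 1.84 for the highest 5p entry and 1.17 for the highest 3p entry. All 10 calls in the 4 comparisons of old with young libraries held under the 4 scalings. The entries were chosen for this contrast and held 4 distinct sets of values, so this is a description and not support. These scalings moved the median over all measured entries by -0.67 to 1.05 on the log2 scale. In CR against PRY they changed the split over all entries from 64 higher and 62 lower to 116 and 26, and in CR against PRO from 25 and 51 to 64 and 32. Depth limits every fold against PRY or SR, where 1 to 3 reads per listed entry set the denominator.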
